A study of Mus musculus with 6 samples.

Results

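The genes described here are the semaphorins, plexins, neuropilins, ephrins and Eph receptors of mouse group 2 innate lymphoid cells (ILC2), tissue lymphocytes that make type 2 cytokines. Members were taken by symbol: Sema followed by a number, Plxna to Plxnd, Efna or Efnb and Epha or Ephb followed by a number, and Nrp1 and Nrp2. Of 56 such symbols in the count files, 51 had a count in at least 1 of the 6 libraries, among 23871 genes with any count. The other 5, Epha3, Epha6, Sema5a, Plxna4os2 and Plxna4os3, were at 0 throughout. The 51 members were 7 class 3, 6 class 4 and 6 class 5 to 7 semaphorins, 9 plexins, 2 neuropilins, 5 ephrin-A and 3 ephrin-B ligands, 7 EphA and 5 EphB receptors, and 1 antisense RNA, Plxna4os1, which the symbol rule also takes.

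All cells came from homozygous Id1 transgenic mice, in which the proximal lck promoter, a promoter of the T lineage, drives Id1, which binds E protein transcription factors and keeps them off DNA. The line was made on FVB/N and then backcrossed to C57BL/J, and by the labels its T cell development is blocked while ILC2 accumulate. The age and sex of the mice are not in the labels. Lineage-negative Thy1+ ST2+ cells were compared in 3 groups of 2 libraries: ILC2 direct from thymus, ILC2 direct from mesenteric lymph nodes (fresh MLN), the 2 uncultured groups, and MLN ILC2 kept for 1 week in medium with IL-33, IL-25 and IL-7, each at 10 ng/ml (cultured MLN). Each of the 3 groups carries the transgene, so no comparison with a wild type is made, and thymus was measured in fresh cells only. About 300000 cells entered each library. Whether the 2 libraries of a group are separate animals or cultures is not stated, so p-values measure the spread between these libraries, which may be technical.

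Semaphorins are secreted or membrane-bound proteins first known as guidance cues of growing axons. They signal through plexins, whose intracellular part acts on small GTPases of the Ras superfamily, and most secreted class 3 semaphorins need a neuropilin as co-receptor. Ephrins are held at the cell surface, ephrin-A by a lipid anchor and ephrin-B by a transmembrane segment, and Eph receptors are tyrosine kinases that bind them where cells touch. In the immune system both systems bear on cell migration, contact and co-stimulation.

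Library totals ran from 35280692 to 40578264 counts. Levels are CPM, the depth-scaled read count on TMM-adjusted library totals, and 3 counts in a library equal 0.0739 to 0.0905 CPM. The ILC2 marker list was detected in full, with 12 of 12 genes tested and a summed level of 8399 to 8514 CPM in thymus, 10620 to 10650 in fresh MLN and 15750 to 15980 in cultured cells. The sum in culture leaned on Il2ra, with a mean of 7831 CPM there against 765 in fresh MLN. Single ILC2 markers went both ways, with 7 called higher and 5 lower in culture against fresh MLN, beside 39.4% and 38.1% of all genes. Il17rb fell from a mean of 2906 CPM to 112, and Rora from 610.5 to 146. Id1 itself stood at 424 CPM ± 3.37 (SD, n = 2) in thymus, 451 ± 24.4 in fresh MLN and 1.33 ± 0.207 in culture, and the counts cannot tell the transgene from the native gene. Markers of other cells were also present. In thymus, fresh and cultured MLN, macrophage markers summed to 5.99 to 9.63, 14.9 to 26.2 and 20.4 to 21.5 CPM, and T cell markers to 507 to 523, 380 to 394 and 58.8 to 67.3. Dendritic cell markers summed to 20.2 to 22.8, 40.4 to 43.9 and 49.8 to 52.7 CPM, and B cell markers to 74.6 to 81.8, 156 to 199.7 and 118 to 131. Most of the T cell sum before culture was Trbc1 and most of the B cell sum in uncultured cells was Ighm, a pair of antigen receptor constant region genes. In bulk libraries, fewer cells of a type and less RNA per cell cannot be told apart.

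Of the 51 members, 38 had enough counts to be tested, and 12 reached a mean of 20 CPM in some group. In cultured against fresh MLN, 26 of the 38 were called higher and 8 lower, at an adjusted p under 0.05 in edgeR's quasi-likelihood test with Benjamini-Hochberg adjustment over 16231 genes. Over all genes tested, 39.4% were called higher and 38.1% lower in that comparison. The median log2 fold change was 1.76 over the tested members and -0.0072 over all genes. These counts need care, since 8 of the tested members (Epha5, Ephb3, Plxnb3, Sema3a, Sema3b, Sema3e, Sema3f and Sema6a) passed the filter on low counts only through the cultured libraries and so had to differ. Another 4 (Efna2, Plxna2, Sema3c and Sema6b) passed through thymus and cultured libraries only. Calls and p-values given below for the genes of both sets, against groups that did not carry them over the filter, are not independent of it. In thymus against fresh MLN, 12 members were called higher and 4 lower, against 25.3% and 22.0% of all genes, with a median log2 fold change of 0.25 against 0. In cultured MLN against thymus, 21 were called higher and 10 lower, against 34.8% and 37.8% of all genes, with medians of 1.27 and -0.058. The 3 comparisons share libraries, so their counts are not independent of each other.

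**Figure D1:**
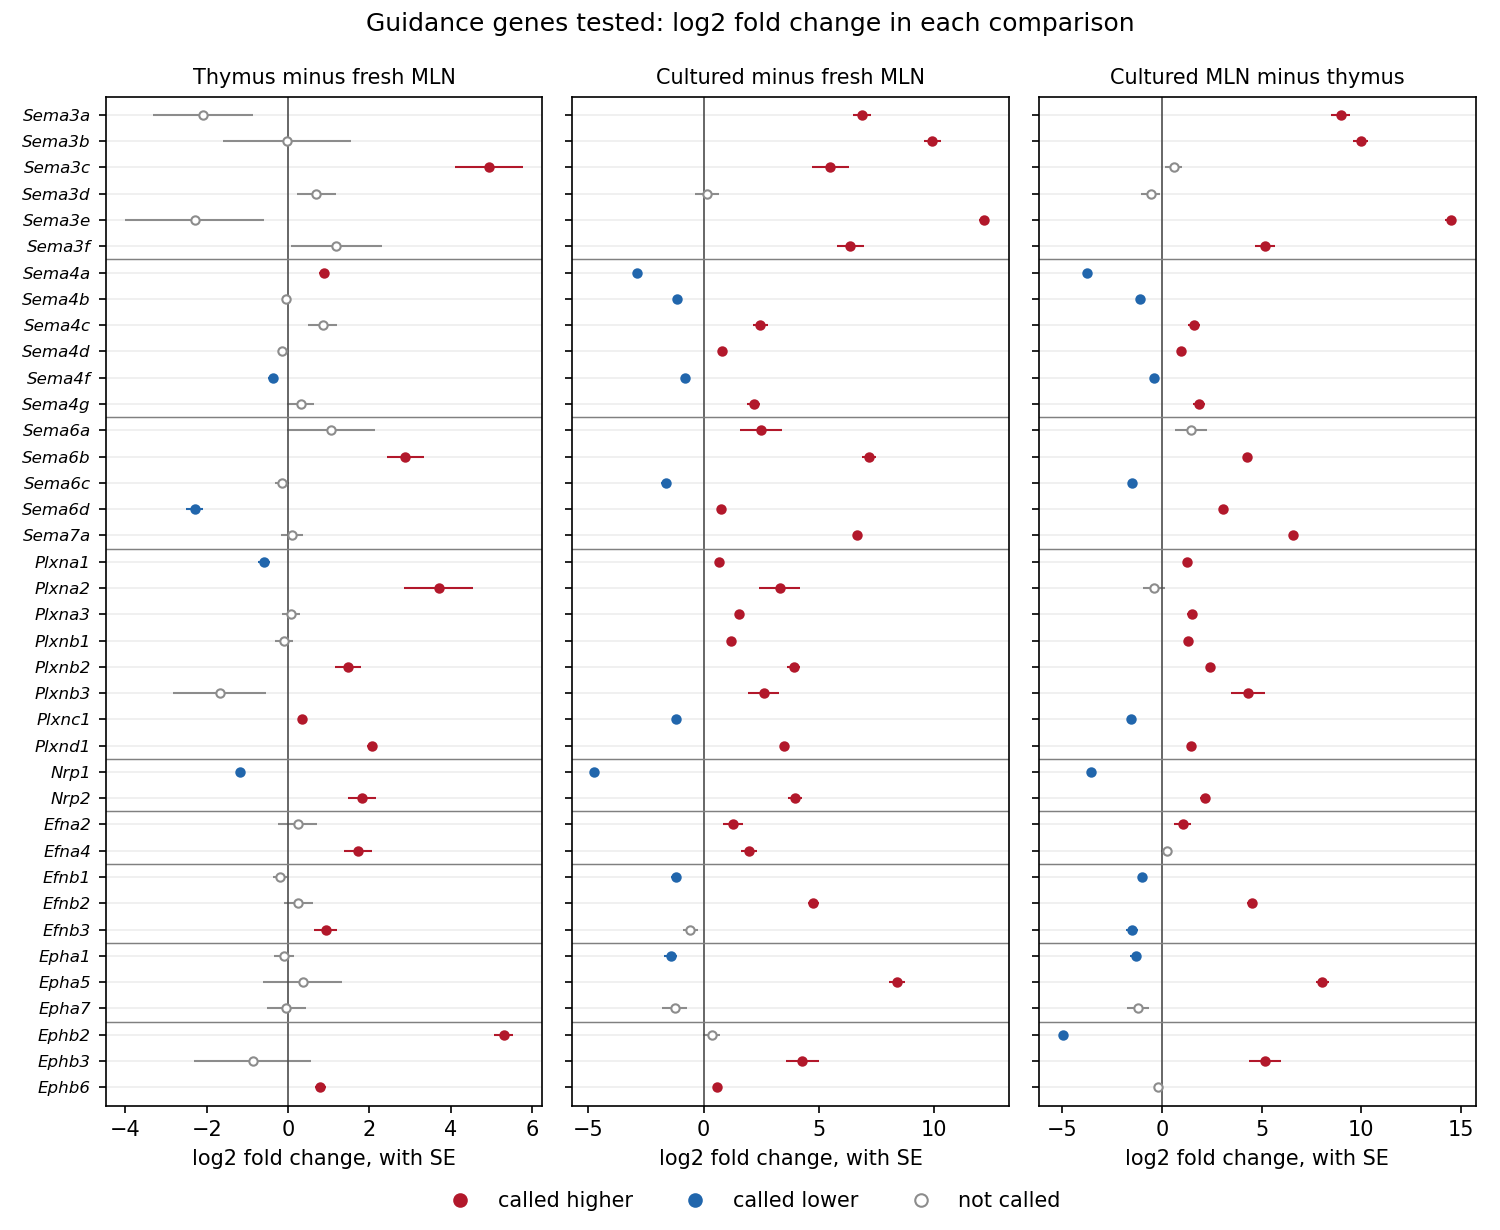
Log2 fold change with its SE (x axis) of the 38 tested guidance genes (y axis, grouped by family from class 3 semaphorins at the top to EphB receptors) in the 3 comparisons. Filled red points are called higher, filled blue points called lower and open grey points not called. Most class 3 semaphorins and plexins lie to the right in both comparisons of cultured cells, and Ephb2 lies far to the right in thymus against fresh MLN and far to the left in cultured MLN against thymus.

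The sequences just upstream of 3 members that were low or near absent in uncultured cells and high in culture are shown, as examples from 3 families of genes that were under 1 CPM in uncultured cells and over 10 CPM in culture. Each run holds the 250 bases before the start in RefSeq's annotation of GRCm38.p6, 5′ to 3′ on the strand of the gene. The first transcribed bases in RefSeq were found in a GENCODE transcript for each of the 3. Sema3e lies at chr5:14025026-14025275 on the plus strand, Sema7a at chr9:57939862-57940111 on the plus strand and Epha5 at chr5:84417383-84417632 on the minus strand. Capitals mark an E-box (CANNTG, the letters that E proteins bind, counted on both strands) or a GATA motif (GATAA, or TTATC for the other strand), which do not overlap each other here.

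Sema3e: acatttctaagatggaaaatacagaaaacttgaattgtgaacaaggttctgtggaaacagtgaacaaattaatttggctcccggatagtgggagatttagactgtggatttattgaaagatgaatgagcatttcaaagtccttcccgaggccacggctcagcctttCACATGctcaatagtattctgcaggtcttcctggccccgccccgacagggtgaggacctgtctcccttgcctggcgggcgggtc

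Sema7a: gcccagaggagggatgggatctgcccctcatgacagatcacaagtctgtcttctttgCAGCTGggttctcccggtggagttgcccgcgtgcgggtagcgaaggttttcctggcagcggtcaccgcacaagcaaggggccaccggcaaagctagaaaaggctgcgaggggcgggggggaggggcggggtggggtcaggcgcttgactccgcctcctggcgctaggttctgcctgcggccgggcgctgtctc

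Epha5: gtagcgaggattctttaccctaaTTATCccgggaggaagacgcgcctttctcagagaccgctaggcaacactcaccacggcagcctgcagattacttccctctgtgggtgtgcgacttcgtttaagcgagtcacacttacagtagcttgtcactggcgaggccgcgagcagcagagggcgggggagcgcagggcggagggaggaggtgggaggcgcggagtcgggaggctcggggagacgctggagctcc

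The Sema3e and Sema7a stretches each hold 1 E-box, which begins 84 and 193 bases before the start, and the Epha5 stretch holds no E-box but 1 GATA motif, 227 bases before the start. The GC share was 48.0% in Sema3e, 66.4% in Sema7a and 62.4% in Epha5. Such letters are common: 66.19% of 32536 promoter stretches of this length hold an E-box, 22.5% a GATA motif and 7.04% a STAT motif (TTCNNNGAA), and none of the 3 genes has the last. RefSeq promoters were found for 44 of the 51 members, 58 stretches in all, of which 28 hold an E-box, 6 a GATA motif and 1 a STAT motif. The motifs and genes were chosen after expression values were seen, no binding was measured, and a match is letters only.

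Class 3 semaphorins, the secreted class, went from near 0 in both uncultured groups to a clear level in culture. Their summed level was 1.04 and 0.957 CPM in the 2 thymus libraries, 0.283 and 0.452 in fresh MLN, with 103 and 105 in cultured MLN. Sema3e made up most of the cultured sum.

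Sema3e encodes the ligand that binds plexin D1 directly, without a neuropilin. It had 0 counts in both thymus libraries, 0 and 1 in fresh MLN, but 2472 and 2834 in cultured MLN, which is 74.6 and 78.1 CPM. The cultured libraries did not overlap with the other 4. Sema3e passed the filter only through the cultured libraries, so neither this nor its calls are independent of the filter. The ratio of cultured to fresh counts, scaled for depth, was 5853 with an exact 95% counting interval from 1050 to 231200, and the level was at least 1992-fold higher than in thymus, taking 3 counts over the thymus group as the floor (adjusted p = 3.13e-13 and 4.13e-13, edgeR).

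Sema3b stood at 0.0246 and 0 CPM in thymus, 0 and 0.0266 in fresh MLN, with 17.0 and 15.3 in culture. That was 1119 counts in culture against 1 in each uncultured group, a ratio of 1234 (counting interval 221 to 48800) to fresh MLN. Sema3a, which acts through neuropilin-1 and A-type plexins, stood at 0 and 0.0266 CPM in thymus, 0.0257 and 0.106 in fresh MLN, with 8.45 and 7.72 in culture. Both genes were called higher in culture against each uncultured group, with no overlap of libraries. Sema3a, Sema3b and Sema3f passed the filter only through the cultured libraries, so their calls are not independent of the filter. Sema3f, a ligand of neuropilin-2, reached 2.20 and 2.67 CPM in culture from at most 0.0798 in an uncultured library, 170 counts against 2 in fresh MLN, a ratio of 93.8 (25.6 to 780).

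Sema3c differed from these in being present in thymus. It stood at 0.518 and 0.479 CPM in thymus, 0 and 0.0266 in fresh MLN, with 0.603 and 0.882 in culture. Against the single count of fresh MLN, the ratio was 38.2 (6.46 to 1547) in thymus and 57.4 (9.85 to 2309) in culture, both called, while cultured cells and thymus were not called different (log2 0.58 ± 0.42 SE, adjusted p = 0.231). Sema3d stayed between 0.206 and 0.394 CPM in the 6 libraries and was called in no comparison, and Sema3g, not tested, had at most 7 counts in a library. Stromal cells also make class 3 semaphorins, so their markers are given here. Among the 10 fibroblast and stroma markers, Lum was at 0 in the 4 uncultured libraries and at 3.11 and 1.74 CPM in culture, Pdpn at 0 and then 0.362 and 1.19, and Col1a1 at most 0.186 and then 1.24 and 1.05. The list as a whole summed to 54.5 to 55.5 CPM in thymus, 44.0 to 47.1 in fresh MLN and 11.9 to 14.6 in culture, most of it Pdgfrb, with Col3a1 and Ccl19 at 0 in culture. The part of stromal cells in the class 3 levels was not tested.

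Class 4 semaphorins, which span the membrane, had the highest summed level of the 9 families in each of the 6 libraries, and their sum stayed between 762 and 921 CPM while its make-up changed. The sum was 874 and 921 CPM in thymus, 774 and 762 in fresh MLN, with 836 and 871 in culture. Sema4a fell in culture while Sema4d rose.

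Sema4d (CD100), a ligand of plexin B1 and, on lymphocytes, of Cd72, stood at 391 and 410 CPM in thymus, 444 and 437 in fresh MLN, with 755 and 773 in cultured MLN. Both cultured libraries lay above the 4 uncultured ones, by 0.79 on the log2 scale over fresh MLN (SE 0.067, adjusted p = 1.42e-07, edgeR). Thymus against fresh MLN was not called (log2 -0.14 ± 0.067, adjusted p = 0.106) but was called lower by DESeq2 (log2 -0.17, adjusted p = 0.0231).

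Sema4a, a membrane semaphorin that acts in T cell priming, stood at 377 and 398 CPM in thymus, 210 and 211 in fresh MLN, with 23.8 and 33.4 in culture. The 3 groups were well apart and in that order. Thymus was higher than fresh MLN by 0.88 on the log2 scale (SE 0.11, adjusted p = 2.33e-05), and the level in culture fell by 2.88 from fresh MLN (SE 0.12, adjusted p = 1e-10, edgeR). Dendritic and B cells also express Sema4a. Their marker lists, of 10 genes each, summed to less in thymus than in fresh MLN and to more in culture than in thymus. Single markers went both ways. Of 7 dendritic cell markers tested, 1 was called higher and 5 lower in culture against fresh MLN, beside 39.4% and 38.1% of all genes. Flt3 passed the filter only through fresh MLN. Xcr1 rose to 38.8 and 33.4 CPM from 5.53 and 6.40, and Itgax fell to 3.86 and 4.19 from 5.42 and 5.82. Ccr7 was between 8.03 and 10.1 in the 6 libraries, Clec9a, Cd209a and Batf3 were at 0 in culture and Siglech at 0 in thymus. Of 5 B cell markers tested, 3 were called higher and 1 lower in that comparison, and Ebf1 passed the filter only through the cultured libraries. Cd79b rose to 47.1 and 50.3 CPM from 16.7 and 11.1 and Cd22 to 7.85 and 7.03 from 1.26 and 1.41. Ighm fell to 60.5 and 71.7 from 181 and 142, and Ms4a1 was at most 0.0266 in every library. The part of such cells in the Sema4a level was not tested.

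Sema4b stood at 88.6 and 96.0 CPM in thymus, 95.5 and 94.1 in fresh MLN, with 38.5 and 46.4 in culture. Thymus and fresh MLN overlapped, and culture was lower than both (log2 -1.16 ± 0.086 SE against fresh MLN, adjusted p = 3.99e-08, edgeR). Sema4f had 16.5 and 15.3 CPM in thymus, 22.8 and 18.4 in fresh MLN, with 12.0 and 11.8 in culture, and was called lowest in culture. Its call in thymus against fresh MLN (log2 -0.38, adjusted p = 0.0143) was lost without the second thymus library (adjusted p = 0.0866) or the first fresh MLN library (adjusted p = 0.192). Sema4c and Sema4g, ligands of plexin B2, were low, at most 1.52 and 0.789 CPM in any uncultured library, and rose in culture to 3.95 and 3.75 and to 2.69 and 3.005.

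**Figure D2:**
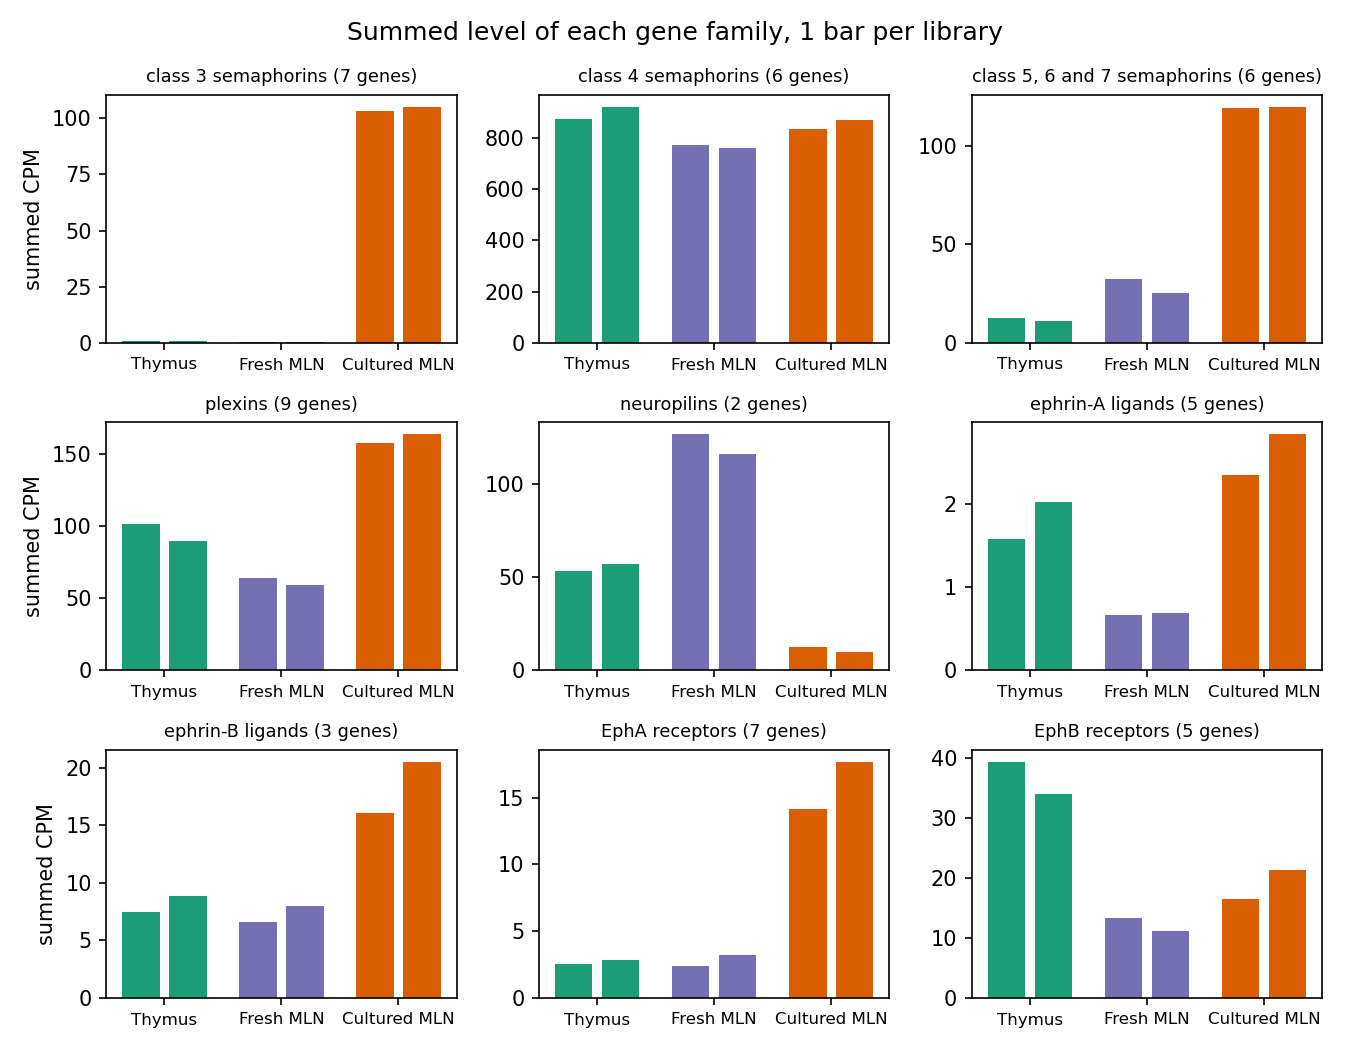
Summed CPM (y axis, from 0, with its own scale in each panel) of the members of 9 families, with 1 bar for each of the 2 thymus, 2 fresh MLN and 2 cultured MLN libraries. Class 3 semaphorins are near 0 before culture, class 4 semaphorins stay between 762 and 921, and neuropilins fall to 12.7 and 10.0 in culture.

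Among the remaining semaphorins, Sema7a and Sema6b rose in culture, Sema6c fell, and Sema6d was lowest in thymus. Sema7a, held by a lipid anchor and bound by plexin C1 and by integrins with a beta 1 chain, stood at 0.591 and 0.665 CPM in thymus, 0.463 and 0.717 in fresh MLN, with 59.4 and 61.4 in culture. The uncultured groups overlapped, and every cultured library lay far above them (log2 6.68 ± 0.15 SE over fresh MLN, adjusted p = 2.34e-13, edgeR).

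Sema6b, a transmembrane ligand of A-type plexins, stood at 0.936 and 1.04 CPM in thymus, 0.231 and 0.0266 in fresh MLN, with 18.7 and 19.9 in culture, 3 levels with no overlap. The log2 change in culture over fresh MLN was 7.17 (SE 0.31, adjusted p = 1.38e-10), and 9.33 without the first fresh MLN library, since the other had a single count, and 6.36 without the second. The log2 change in thymus over fresh MLN was 2.88 (SE 0.46, adjusted p = 0.000216), with 5.05 and 2.07 without the first and the second. Sema6a was called higher in culture against fresh MLN at 0.332 and 0.441 CPM (log2 2.51, adjusted p = 0.0242), a call lost without the first fresh MLN library (1.52, adjusted p = 0.167) or either cultured one (2.70 and 2.29, adjusted p = 0.0586 and 0.125).

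Sema6d, a ligand of plexin A1, stood at 5.55 and 3.32 CPM in thymus, 26.3 and 17.6 in fresh MLN, with 39.2 and 35.9 in culture. Thymus was lower than fresh MLN (log2 -2.30 ± 0.21 SE, adjusted p = 1.46e-06, edgeR), with no overlap, and culture was higher than fresh MLN by 0.78 (adjusted p = 0.00131). Sema6c went the other way in culture, with 5.15 and 6.06 CPM in thymus and 5.71 and 6.72 in fresh MLN but 1.84 and 2.12 in culture (log2 -1.64 ± 0.19 against fresh MLN, adjusted p = 3.29e-06). Sema5b, not tested, had 5 counts in 1 cultured library and 0 elsewhere.

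**Figure D3:**
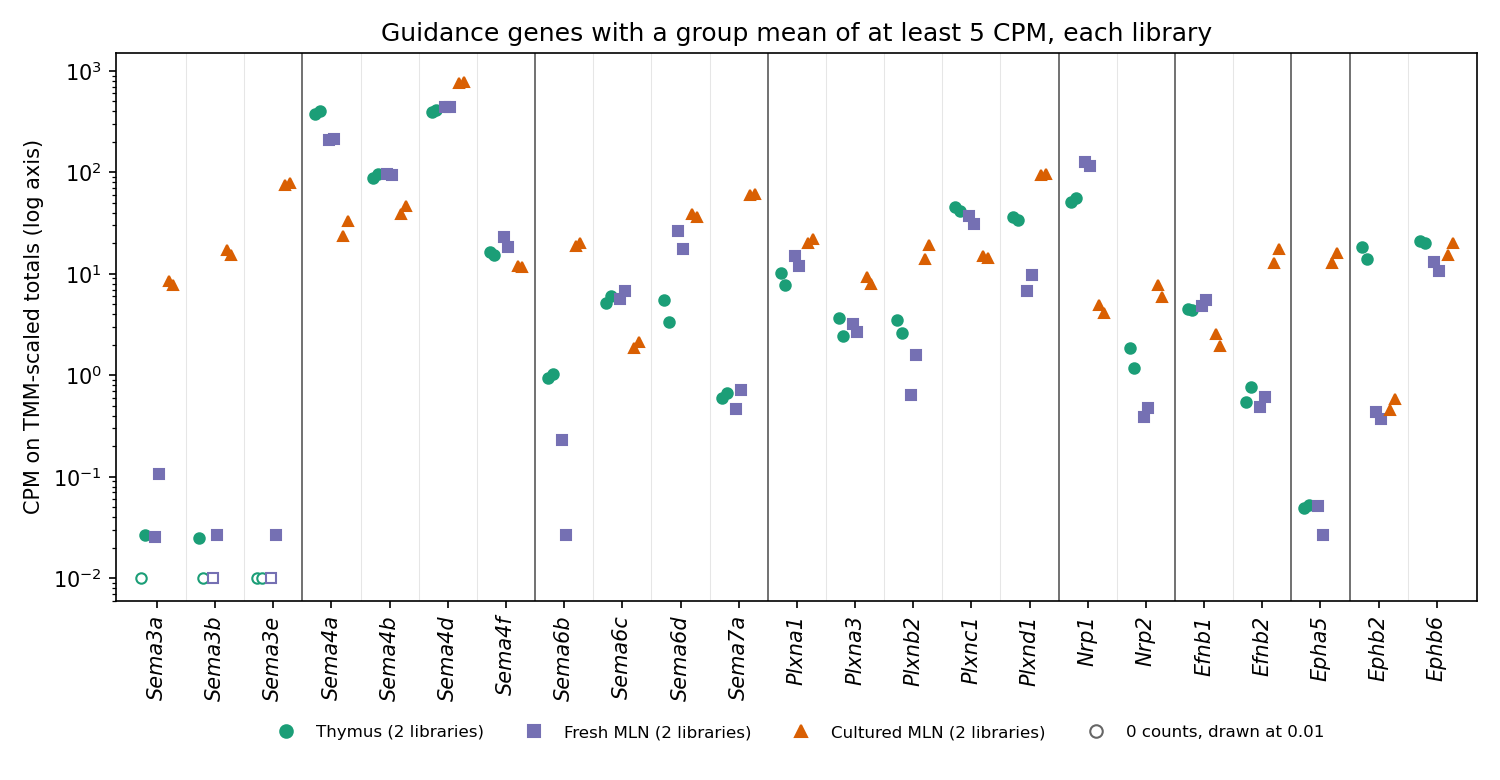
CPM on a log axis (y) in each of the 6 libraries for the 23 guidance genes with a mean of at least 5 CPM in some group (x, by family). Circles are thymus, squares fresh MLN and triangles cultured MLN, and open symbols at 0.01 stand for 0 counts. Sema3a, Sema3b, Sema3e and Epha5 rise from near 0 to between 7.72 and 78.1 CPM in culture, while Nrp1 and Sema4a fall.

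The plexins, receptors of the semaphorins, mostly rose in culture while Plxnc1 fell, and the leading plexin changed. Of the 9, 8 were tested, and in culture against fresh MLN 7 were called higher and 1 lower, beside 39.4% and 38.1% of all genes. Of the 7, Plxnb3 passed the filter only through the cultured libraries and Plxna2 only through thymus and cultured ones. Plxnc1 made up 44.6 to 57.5% of the plexin sum in the 4 uncultured libraries, and Plxnd1 59.0 and 58.2% in the 2 cultured ones. Per length of exon the same genes led.

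Plxnd1, the receptor of Sema3e, stood at 36.2 and 33.6 CPM in thymus, 6.84 and 9.75 in fresh MLN, with 93.2 and 95.4 in culture. The groups did not overlap and fresh MLN was the lowest. The log2 change over fresh MLN was 2.08 in thymus (SE 0.12, adjusted p = 2.2e-08) and 3.51 in culture (SE 0.12, adjusted p = 1.76e-11, edgeR). The receptor was measured in both uncultured groups, where Sema3e had 1 count in all.

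Plxnc1, the receptor of Sema7a, stood at 45.3 and 41.4 CPM in thymus, 37.0 and 30.8 in fresh MLN, with 15.0 and 14.3 in culture. It fell in culture by 1.21 on the log2 scale from fresh MLN (SE 0.10, adjusted p = 1.3e-07, edgeR), where Sema7a rose. Its higher level in thymus than in fresh MLN (log2 0.35, adjusted p = 0.00768) was no longer called without the first thymus library (adjusted p = 0.0541) or the second fresh MLN library (adjusted p = 0.107).

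Plxnb2, a receptor of class 4 semaphorins, stood at 3.50 and 2.63 CPM in thymus, 0.642 and 1.57 in fresh MLN, with 14.2 and 19.1 in culture. It was called higher than fresh MLN in thymus (log2 1.48 ± 0.32 SE, adjusted p = 0.00205) and in culture (3.91 ± 0.29, adjusted p = 3.1e-08, edgeR). Without the second fresh MLN library these were 2.25 and 4.68. Plxnb1, the Sema4d receptor of the nervous system, was lower and changed less, with 1.85 and 1.84 CPM in thymus and 1.75 and 2.20 in fresh MLN against 4.83 and 4.30 in culture.

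Plxna1, which pairs with neuropilins and also binds Sema6d, stood at 10.2 and 7.69 CPM in thymus, 14.9 and 12.0 in fresh MLN, with 20.3 and 22.1 in culture. It was called highest in culture (log2 0.66 ± 0.14 over fresh MLN, adjusted p = 0.000724, edgeR) and lowest in thymus (-0.58, adjusted p = 0.00543). The thymus call was lost without the second thymus library (adjusted p = 0.0571) or the first fresh MLN library (adjusted p = 0.0564). Plxna3 stood at 3.70 and 2.45 CPM in thymus, 3.19 and 2.68 in fresh MLN, with 9.35 and 7.89 in culture, where it rose (log2 1.55 ± 0.20, adjusted p = 1.22e-05). Plxna2 and Plxnb3 stayed under 1 CPM in every library. Plxna2 had 2 counts over fresh MLN against 30 in thymus and 20 in culture, and its call in culture was lost without the first fresh MLN library (adjusted p = 0.0514). Plxna4, not tested, had 15 counts over thymus, 3 over fresh MLN and 0 over cultured MLN.

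The 2 neuropilins moved in opposite directions in both comparisons with fresh MLN. Nrp1, a co-receptor of Sema3a and of VEGF-A, stood at 51.4 and 55.7 CPM in thymus, 126 and 116 in fresh MLN, with 4.92 and 4.14 in culture. No libraries overlapped. Thymus was lower than fresh MLN (log2 -1.17 ± 0.079 SE, adjusted p = 7.99e-08) and culture lower still (-4.74 ± 0.10, adjusted p = 1.99e-13, edgeR).

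Nrp2, a co-receptor of Sema3f and of VEGF-C, stood at 1.87 and 1.17 CPM in thymus, 0.385 and 0.478 in fresh MLN, with 7.82 and 5.87 in culture. It was lowest in fresh MLN, with log2 changes of 1.82 in thymus (SE 0.34, adjusted p = 0.000807) and 3.98 in culture (SE 0.30, adjusted p = 4.37e-08, edgeR). The summed level of the 2 genes was 53.3 and 56.9 CPM in thymus, 127 and 116 in fresh MLN, with 12.7 and 10.0 in culture. Per kb of exon, Nrp1 had 12.3 CPM in fresh MLN and 0.463 in culture.

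Macrophages, dendritic cells and endothelium also express Nrp1, and in culture their markers went both ways. In thymus against fresh MLN, 0 of 7 tested macrophage markers were called higher and 4 lower. Dendritic cell markers had 1 higher and 4 lower of 7 there, and endothelial markers 2 higher and 1 lower of 3. Over all genes, 25.3% were called higher and 22.0% lower. In culture against fresh MLN, 2 of 7 tested macrophage markers were called higher and 5 lower. Of 7 tested dendritic cell markers 1 was higher and 5 lower, and of 3 tested endothelial markers 2 were higher and 1 lower. Of all genes, 39.4% were called higher and 38.1% lower. Marco, Flt3 and Flt1 passed the filter only through fresh MLN, so their calls are not independent of it. Lyz2 was at 0.863 and 2.74 CPM in thymus, 7.89 and 13.7 in fresh MLN, with 0.0905 and 0.469 in culture, and Fscn1 at 0.542 and 0.798, 14.4 and 17.4, and 1.27 and 1.68. In the endothelial list of 10, which summed to 134 to 142, 100 to 111 and 159 to 162 CPM and was mostly Pecam1, Cdh5 was at most 0.154 CPM and Tek at most 0.0551 in any library. Marco was at 0 in thymus and in culture, and Mertk at 0 in culture. Other markers were highest in culture. Adgre1 rose to 3.59 and 3.56 CPM from 0.231 and 0.292 in fresh MLN, and Cd68 to 16.9 and 16.0 from 3.29 and 4.67. Egfl7 rose to 6.73 and 6.62 from 0.334 and 0.159, and Xcr1 as given above. The part of these cells in the Nrp1 level was not tested.

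The ephrins, the surface ligands of Eph receptors, were low in uncultured cells and gained Efnb2 in culture. Efnb2, an ephrin-B with a transmembrane segment, stood at 0.542 and 0.771 CPM in thymus, 0.488 and 0.611 in fresh MLN, with 12.6 and 17.4 in culture. The uncultured groups overlapped, and both cultured libraries lay far above (log2 4.77 ± 0.25 SE over fresh MLN, adjusted p = 9.56e-10, edgeR). Efnb1 stood at 4.53 and 4.44 CPM in thymus, 4.83 and 5.497 in fresh MLN, with 2.54 and 1.93 in culture, where it fell (-1.21 ± 0.19, adjusted p = 7.25e-05). Efnb1 was the leading ephrin per length in the 4 uncultured libraries and Efnb2 in the 2 cultured ones.

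Efnb3 had 2.37 and 3.64 CPM in thymus, 1.26 and 1.89 in fresh MLN, with 0.905 and 1.19 in culture. Its call as higher in thymus than in fresh MLN (log2 0.93, adjusted p = 0.0164) was lost without the second thymus library (adjusted p = 0.179) or the first fresh MLN library (adjusted p = 0.117), and it was lower in culture than in thymus (-1.51 ± 0.30, adjusted p = 0.000571). Efna4, an ephrin-A with a lipid anchor, was lowest in fresh MLN, at 1.18 and 1.70 CPM in thymus, 0.411 and 0.452 in fresh MLN, with 1.48 and 1.90 in culture (log2 1.73 ± 0.34 in thymus and 1.97 ± 0.34 in culture). Efna2 had 0.239 to 0.634 CPM, and its call as higher in culture than in fresh MLN (log2 1.27, adjusted p = 0.0179) was lost without any 1 of the 4 libraries compared (adjusted p from 0.0671 to 0.112) and in DESeq2 (0.0922). The call against thymus (log2 1.03, adjusted p = 0.0439) was lost without any 1 of the 6 libraries. Efna1, not tested, had 8 counts in each cultured library and 0 elsewhere, and Efna3 and Efna5 had at most 3 counts in a library.

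Among the Eph receptors, Ephb2 was highest in thymus, Epha5 in culture, and Ephb6 was present throughout. Ephb2, a receptor kinase of B ephrins, stood at 18.3 and 13.9 CPM in thymus, 0.437 and 0.372 in fresh MLN, with 0.453 and 0.579 in culture. Thymus did not overlap with the others. It was higher than fresh MLN by 5.30 on the log2 scale (SE 0.23, adjusted p = 1.22e-09) and than culture (cultured minus thymus -4.95 ± 0.23, adjusted p = 4.22e-10, edgeR), while culture against fresh MLN was not called (0.35 ± 0.37, adjusted p = 0.399).

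Thymocytes and thymic epithelium also express Ephb2. Of 12 T cell and thymocyte markers, Rag1 was at 0.764 and 0.292 CPM in thymus and at most 0.0266 elsewhere, Rag2 at 0.641 and 0.558 against at most 0.0266, and Cd4 at 5.13 and 6.49 against at most 1.00, with Ptcra at 0 in thymus. Of 11 tested, 6 were called higher and 1 lower in thymus against fresh MLN, beside 25.3% and 22.0% of all genes. Cd3e was the lower one, at 73.9 and 72.8 CPM against 90.2 and 101, and Cd3g, Cd8a, Cd8b1 and Trac were not called. Rag1, Rag2 and Dntt passed the filter only through thymus, so their calls are not independent of it. That list summed to 507 to 523 CPM in thymus, 380 to 394 in fresh MLN and 58.8 to 67.3 in culture, most of it Trbc1 in the uncultured groups. The thymic epithelium list of 10 summed to 44.6 to 48.9, 71.5 to 73.9 and 19.6 CPM, most of it Ly75. In thymus Krt5, Krt8, Foxn1 and Psmb11 were at most 0.133 CPM, and they were at 0 in both fresh MLN libraries, the same direction as Ephb2, while Krt14 was at 0 throughout. Epcam stood at 2.12 and 2.61 CPM in thymus against 1.95 and 1.54 in fresh MLN, and Aire at 0.444 and 0.399 against 0.308 and 0.398, neither of them called, and Ly75 was called lower in thymus. The part of these cells in the Ephb2 level was not tested.

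Epha5, a receptor of A ephrins, had 2 counts in each thymus library, 2 and 1 in fresh MLN, with 422 and 586 in cultured MLN, which is 12.7 and 16.2 CPM. The ratio to fresh MLN was 371, with a counting interval from 127 to 1800 (adjusted p = 6.38e-11, edgeR). The cultured libraries did not overlap with the rest. Epha5, like Ephb3, passed the filter only through the cultured libraries, so these differences are not independent of the filter. Ephb3 rose as well but to a low level, 0.603 and 0.551 CPM in culture against at most 0.0266 elsewhere, 40 counts against 2 in fresh MLN (ratio 22.1, interval 5.72 to 188).

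Ephb6, an Eph receptor without kinase activity that T lineage cells express, stood at 21.1 and 20 CPM in thymus, 12.9 and 10.7 in fresh MLN, with 15.2 and 20.2 in culture. Fresh MLN was lowest, and thymus and culture overlapped. The log2 change over fresh MLN was 0.80 in thymus (SE 0.13, adjusted p = 0.00033) and 0.58 in culture (SE 0.14, adjusted p = 0.00153, edgeR). It was the leading Eph receptor in each of the 6 libraries, with 49.8 to 81.9% of their summed CPM. Summed per length of exon, its share was 74.0 to 85.8%.

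Epha1 stood at 1.65 and 2.13 CPM in thymus, 1.82 and 2.23 in fresh MLN, with 0.724 and 0.772 in culture, called lower there (log2 -1.43 ± 0.28 against fresh MLN, adjusted p = 0.00045, edgeR). This value is uncertain: Epha1 shares exon positions with Zyx on the opposite strand, a gene at 171 to 319 CPM here, and without a stated strand setting their reads cannot be told apart there. Epha7, at 0.138 to 0.823 CPM, was not called (culture against fresh MLN, log2 -1.26 ± 0.55, adjusted p = 0.053), but was called lower there without the filter (adjusted p = 0.0232). The untested Epha2, Epha4, Epha8, Epha10, Ephb1 and Ephb4 had at most 19 counts in a library, and the last shares exon positions with Zan. The antisense RNA Plxna4os1 had at most 3.

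Compared by mean level per length, the order of the members changed with culture. Sema4a led in thymus with 71.7 CPM per kb of exon, ahead of Sema4d with 52.1. In fresh MLN Sema4d had 57.4 and Sema4a 38.9. In culture Sema4d had 99.5, followed by Sema7a with 18.3, Plxnd1 with 12.9 and Sema3e with 8.22, each of which was above Sema4a at 5.28. In thymus and fresh MLN Sema7a had 0.191 and 0.179.

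**Figure D4:**
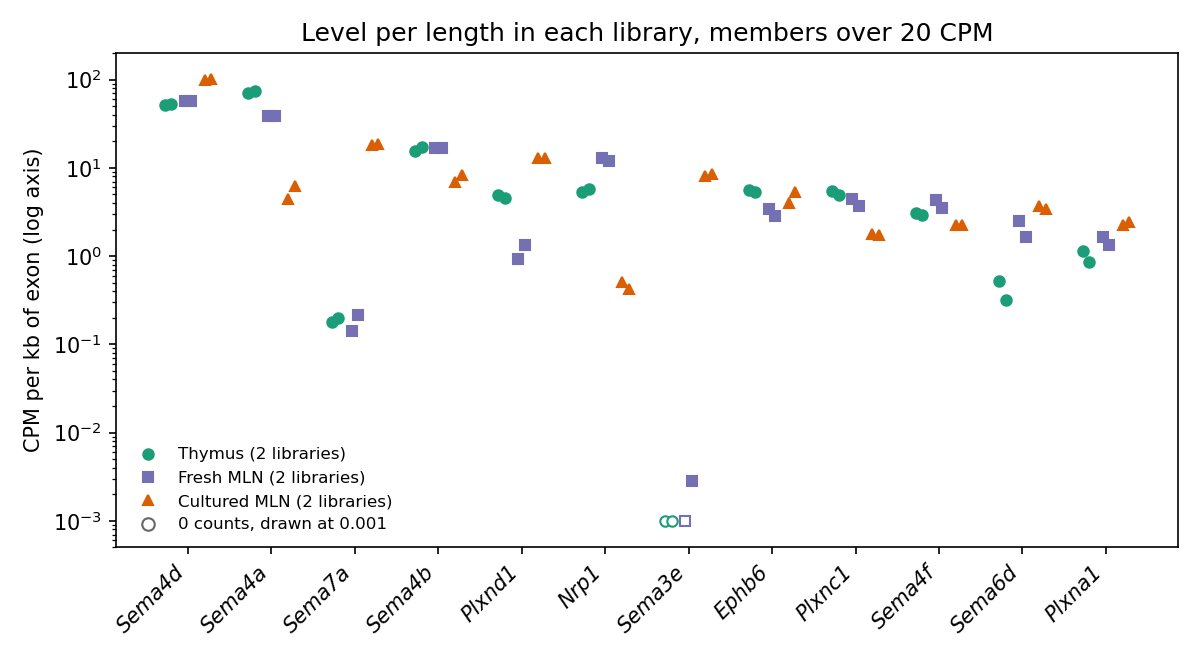
CPM per kb of exon on a log axis (y) for the 12 guidance genes with a mean over 20 CPM in some group (x, in order of their highest group mean), 1 symbol for each library. Circles are thymus, squares fresh MLN and triangles cultured MLN, and open symbols at 0.001 stand for 0 counts. Sema4d is the highest in cultured cells, and Sema7a and Sema3e pass most other members only there.

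Partners of plexins and neuropilins, a list of 22 genes, moved in both directions. Of 15 tested, 7 were called higher and 6 lower in thymus against fresh MLN, beside 25.3% and 22.0% of all genes, and 9 higher and 4 lower in culture against fresh MLN, beside 39.4% and 38.1%. Flt1 passed the filter only through fresh MLN and Ptk7 only through thymus and cultured libraries. Itga1 passed only through fresh and cultured MLN, and Flt4 only through thymus and fresh MLN. Vegfc and Vegfa, ligands that neuropilins share with VEGF receptors, rose in culture. Vegfc, which binds Nrp2, stood at 0.419 and 0.745 CPM in thymus, 0.463 and 0.664 in fresh MLN, with 208 and 214 in culture (log2 8.54 ± 0.14 SE over fresh MLN, adjusted p = 2.88e-14, edgeR). Vegfa, which binds Nrp1, stood at 3.79 and 3.38, 2.65 and 2.79, and 192 and 178 CPM (6.09 ± 0.099, adjusted p = 2.49e-14). L1cam, an adhesion protein that associates with Nrp1, rose in culture to 108 and 102 CPM from 3.42 and 4.73 in fresh MLN.

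Cd72, the lymphocyte receptor of Sema4d, was lower in thymus, at 14.6 and 14.3 CPM, than in fresh MLN, at 56.8 and 50.3, and stood at 53.1 and 48.9 in culture. Itga1, which pairs with the beta 1 chain in a Sema7a receptor, was at 0.148 and 0.213 CPM in thymus, 0.977 and 0.664 in fresh MLN, with 4.10 and 7.55 in culture, called higher there (log2 2.83 ± 0.32 over fresh MLN, adjusted p = 3.08e-06, edgeR). Itgb1, the gene of the beta 1 chain, went the other way in both comparisons. It was called lower in culture than in fresh MLN (log2 -0.54 ± 0.065, adjusted p = 4.71e-06, edgeR) and higher in thymus (0.77 ± 0.064). Robo1, a Slit receptor, was highest in thymus, at 22.4 and 21.0 CPM against 2.88 and 2.60 in fresh MLN, with 6.09 and 5.29 in culture.

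Of 33 plexin effectors tested, 25 were called higher and 4 lower in culture against fresh MLN, beside 39.4% and 38.1% of all genes, with a median log2 fold change of 0.68. In thymus 15 were called higher and 5 lower, beside 25.3% and 22.0%. Crmp1 and Rnd3 passed the filter only through the cultured libraries, and Dpysl3 and Micall2 only through thymus and cultured ones. Mras, a small GTPase of the R-Ras group on which plexins act, stood at 2.54 and 2.61 CPM in thymus, 10.2 and 8.74 in fresh MLN, with 244 and 259 in culture (log2 4.73 ± 0.087, adjusted p = 6.24e-14, edgeR). Crmp1, a cytosolic mediator of Sema3a signals, rose in culture to 34.0 and 30.6 CPM from 0.180 and 0.159 in fresh MLN. Rnd2, a small GTPase that binds plexins, was lowest in fresh MLN, at 0.180 and 0.266 CPM, against 1.18 and 0.878 in thymus and 8.27 and 7.31 in culture. Arhgef12, a guanine nucleotide exchange factor bound by B-type plexins, was lower in thymus, at 16.5 and 13.99 CPM, than in fresh MLN, at 65.5 and 58.1.

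Of the 37 tested effectors of Eph receptors and ephrins, 12 were called higher and 15 lower in culture against fresh MLN (median log2 0.045), which is near the 39.4% and 38.1% of all genes. In thymus 12 were called higher and 6 lower, beside 25.3% and 22.0%. Chn1 and Ngef passed the filter only through the cultured libraries, and Grb10 only through thymus and cultured ones. All of these were called higher in culture than in fresh MLN. Inppl1, a lipid phosphatase that binds EphA receptors, stood at 3.82 and 3.11 CPM in thymus, 9.56 and 9.06 in fresh MLN, with 89.4 and 94.1 in culture (log2 3.30 ± 0.093, adjusted p = 2.18e-12, edgeR). Tns3, a tensin of focal adhesions, and Vav3, an exchange factor of small GTPases, fell in culture, Tns3 from 68.9 and 56.8 CPM in fresh MLN to 4.10 and 4.58, and Vav3 from 11.9 and 15.1 to 1.72 and 1.10. Tiam1, a Rac exchange factor, was higher in thymus, at 118 and 88.3 CPM, than in fresh MLN, at 45.4 and 43.0, and Kalrn was called in the same direction at 2.96 and 2.23 against 1.62 and 1.20. The Kalrn call was lost without the first thymus library (adjusted p = 0.0665) or the second fresh MLN library (adjusted p = 0.0625).

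Of 28 genes of the Slit, netrin and related families, 27 were in the files and 15 were tested. In culture against fresh MLN 11 were called higher and 1 lower, beside 39.4% and 38.1% of all genes, with a median log2 fold change of 1.66. In thymus 3 were called higher and 2 lower, beside 25.3% and 22.0%. Flrt3 and Rgma passed the filter only through the cultured libraries, and Flrt2, Slit2 and Srgap1 only through thymus and cultured ones, so the count in culture is not independent of the filter. Srgap3, a GTPase regulator downstream of Robo receptors, stood at 10.8 and 15.2 CPM in thymus, 8.84 and 12.8 in fresh MLN, with 155 and 132 in culture. The netrin receptors Unc5b and Neo1 rose in culture, to 12.3 and 10.1 and to 6.40 and 5.18 CPM, from at most 0.745 and 0.360 in fresh MLN. Ntng2, a membrane-anchored netrin, was lower in thymus, at 28.5 and 27.5 CPM, than in fresh MLN, at 48.5 and 52.7, and reached 124 and 130 in culture. Unc5a had the same order, from 4.58 and 3.62 CPM in thymus to 5.17 and 5.84 in fresh MLN, with 13.3 and 13.2 in culture, but its call in thymus against fresh MLN (log2 -0.42, adjusted p = 0.0439) was lost without the second thymus library (adjusted p = 0.27), without the second fresh MLN library (adjusted p = 0.19) and without either cultured library (adjusted p = 0.0661 and 0.0635).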

How the data were processed

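The authors deposited raw read counts per Ensembl gene for each library, made with HTSeq 0.5.3p9 on mm9 and NCBIM37 per the submitters' processing notes, from a stranded mRNA kit per the labels' protocols. For the aligner, the annotation release and the setting for strand, nothing is given in the sources used here. Symbols and exon lengths came from GENCODE M21 by Ensembl identifier, which named 32919 of 37991 genes, and 0 entries named no gene. CPM per kb used the union of exons.

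Counts were filtered with filterByExpr, which kept 16231 genes (cut 0.269 CPM), scaled by TMM and fitted in edgeR 4.0.16 (R 4.3.3) over the 6 libraries, with 1 mean per group and no block. The quasi-likelihood F test was two-sided, with Benjamini-Hochberg adjustment over all genes tested and calls at an adjusted p under 0.05. The SE of a log2 change is its size divided by the square root of F, with 3 residual and 9.54 prior degrees of freedom. Values after ± in CPM are SDs. The same steps were tested on simulated data. With 2 libraries against 2 an exact permutation test cannot go below p = 0.333, so none was run.

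Against a group with 1 to 3 counts, folds are depth-scaled count ratios with exact (Clopper-Pearson) 95% intervals, and against 0 a floor of 3 counts over the group was used. Neither covers more than counting error, and PCR copies of a molecule cannot be recognised here. The rule for named genes took each member, with values in every library from 5 CPM in the highest group, and the largest called changes of each pathway list at 5 CPM or more. The members, the lists and these rules were chosen with earlier results of these data known. Alternatives were other scaling factors, other filters, DESeq2 1.42.0, a test against a 2-fold change, fits to 2 groups, a replicate block and leaving out each library; for pathway genes these were added after seeing the data. A protein comparison was planned and not done, and the promoter stretches were added after expression values were seen.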

Additional observations from a re-analysis of the deposited data

How the results depend on the processing

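Calls under a test against a 2-fold change were fewer: 5 members higher and 1 lower in thymus against fresh MLN, 5 lower in culture against fresh MLN and 5 lower in culture against thymus. With each library left out in turn, the members called lower in thymus against fresh MLN ranged from 2 to 4; the second thymus and the first fresh MLN library each gave 2, with Sema4f and Plxna1 lost. The other counts of called members stayed within 1.5 times of the reported ones under every setting that was run. A fit with the replicate block called 13 members higher and 4 lower in thymus against fresh MLN, 26 and 8 in culture against fresh MLN, and 20 and 10 in culture against thymus. Whether same-numbered libraries share animals or a batch is not known here. Their deviations from the group means correlated across genes at 0.115 for thymus and fresh MLN. The values were 0.0339 for fresh and cultured MLN and 0.0211 for thymus and cultured MLN. With 2 libraries a group, such correlations cannot decide whether the libraries are paired. Scaling by library totals alone moved the median of all genes to -0.23 in culture against fresh MLN and -0.32 in culture against thymus.

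The sign turned only for log2 changes that were not called. With library totals alone it was 0.004 for Sema3b (thymus against fresh MLN), -0.083 for Sema3d (culture against fresh MLN) and -0.021 for Efna4 (culture against thymus). With 1 library left out, thymus against fresh MLN ranged from -0.011 to 0.49 for Efnb2, -1.19 to 5.42 for Sema6a, -0.42 to 0.48 for Epha7, -0.010 to 0.87 for Epha5, -0.29 to 0.076 for Epha1, -0.092 to 0.024 for Sema4b, -5.32 to 0.52 for Plxnb3, -0.26 to 0.34 for Plxna3, -0.19 to 0.43 for Sema7a, -0.26 to 0.071 for Plxnb1 and -2.27 to 2.27 for Sema3b. Culture against fresh MLN ranged from -0.036 to 0.32 for Sema3d, and culture against thymus from -0.011 to 0.51 for Efna4. The cause of these turns was not tested. The fold behind some fitted changes moved by over 1.5 times with 1 library left out. Among genes with few counts, Sema3e in culture against fresh MLN ranged from 11.32 to 14.47 on the log2 scale. Genes with more counts moved too, as with Plxnb2 in that comparison, from 3.91 to 4.68 without the second fresh MLN library. Levels under about 0.09 CPM rest on 3 counts or fewer in a library.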
